A study of Mus musculus with 3 samples.

Results

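Chemokine ligands are the small secreted or membrane-tethered proteins that tell leukocytes where to go. The RNA levels of 33 mouse genes encoding them were examined in tumor-associated macrophages and CD4 T cells, out of 33506 genes with a level in the table. They were chosen by name from a list of 34 ligands, by a rule that used no measured value, though earlier results of these data were known. Ccl28 was dropped because it was not found under that name in the annotation. The CC, CXC, CX3C and C families are named after the spacing of the first cysteines of the mature protein. Each ligand binds one or several G protein-coupled receptors, and a cell that carries the receptor moves up the gradient of the ligand. In tumors, macrophages are a well-known source of chemokines that draw in further monocytes, T cells or neutrophils, while activated T cells make a smaller and partly different set.

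The cells came from BALB/C mice bearing tumors of Renca, a mouse renal carcinoma cell line, injected into the kidney. They were sorted by flow cytometry with antibodies against CD45.2, TCRbeta, CD4, F4/80 and CD11b into 3 subsets, which were type-1 macrophages (M1) with intermediate F4/80 and high CD11b, type-2 macrophages (M2) with high F4/80 and intermediate CD11b, and CD4 T cells positive for TCRbeta (CD4). Material was pooled from 30 tumors and 4 spleens, the harvest is given both as day 14 and as day 16 after injection, and the CD4 T cells are placed both in spleen and in tumor. All mice bore tumors, so no group of naive animals stands beside them. Age and sex are not given in the sources used here. Each subset was 1 library of total RNA, so that no difference below has a replicate check and none was tested.

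Levels are in FPKM, the fragments of a transcript divided by its length and by the size of the library, so that genes of different length can be compared. The depth estimated from low values was 6.12e+07 fragments for the library labelled M1, 5.99e+07 for M2 and 7.33e+07 for CD4. Before the ligands, the sorted identities were checked against marker genes, and they went against 2 of the 3 labels. The 10 T-cell markers, Cd3e and Trbc1 among them, summed to 4.99 FPKM in the library labelled M1, 1464 in that labelled M2 and 2.36 in that labelled CD4, and all 10 were highest in M2. The 10 macrophage markers, Csf1r and Emr1 (F4/80) among them, summed to 2223, 300 and 6207 FPKM in the same order, and all 10 were lower in the library labelled M2 than in both others. The libraries are therefore called by their labels, and every direction rests on those labels. In sorted bulk RNA, fewer cells of a type and less RNA per cell cannot be told apart.

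A value of 0 in the table can be a failed estimate. Of 75 ribosomal protein genes, which every cell uses, 7 were listed at 0 in the library labelled M1, 7 in M2 and 6 in CD4. Of these, 3 in M1, 2 in M2 and 2 in CD4 were at 10 FPKM or more in another library. No ratio is therefore given against a library in which a gene is listed at 0. Ratios on a log2 scale were taken after adding 1 FPKM, which understates the change of low genes. A gene entered a comparison only if it reached 1 FPKM in 1 of the 2 libraries compared, and was called higher or lower at a log2 ratio of at least 1 in size, with no statistical test.

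Chemokine ligand RNA was abundant in the libraries labelled M1 and CD4 and sparse in that labelled M2. The summed level of the 33 members was 2242 FPKM in the library labelled M1, 346 in M2 and 2497 in CD4. Members at 100 FPKM or more numbered 2 in M1, 0 in M2 and 8 in CD4, whereas members at 1 FPKM or more were nearly as many in each library, at 20, 19 and 20. At the cut of 1 FPKM, the libraries therefore differed in how high the ligands stood more than in how many were present. At 10 FPKM or more, members numbered 18 in M1, 12 in M2 and 15 in CD4. Of the 33, 16 reached 1 FPKM in all 3 libraries, 23 in at least 1, and 10 stayed below 1 FPKM throughout in the rows used, the highest of these, Ccl25, at 0.877 FPKM.

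**Figure D1:**
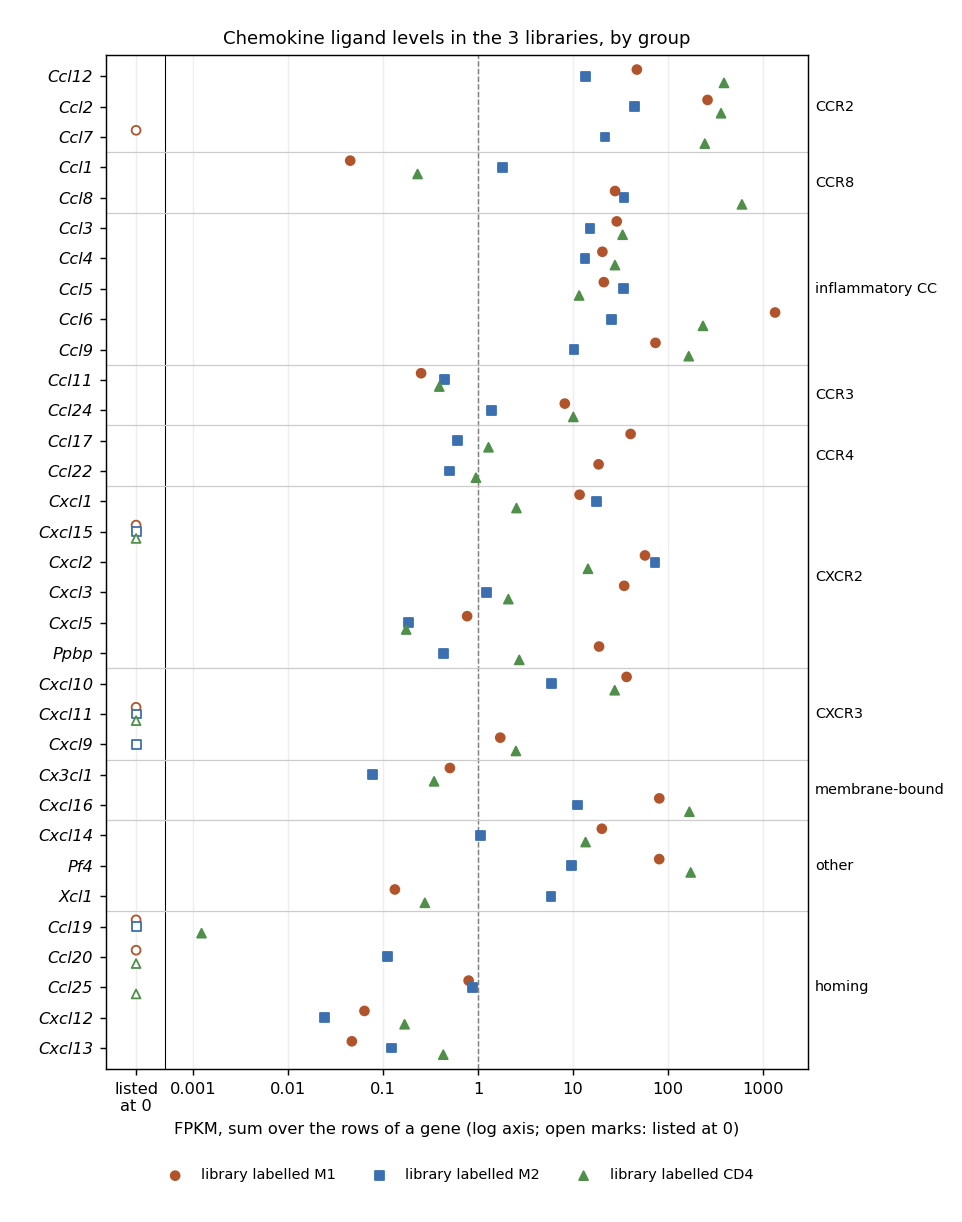
Level of each of the 33 chemokine ligands in FPKM (log axis) in the libraries labelled M1 (circles), M2 (squares) and CD4 (triangles), 1 library each, grouped by the main receptor of the ligand or by kind. Open marks at the left are values listed at 0, the dashed line is 1 FPKM, and the highest mark is Ccl6 in M1 at 1347 FPKM.

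The make-up of the signal differed as much as its size. In the library labelled M1, Ccl6 alone was 60.1% of the summed ligand level and the top 3 ligands 75.4%. The library labelled M2 had no such leader, with Cxcl2 first at 21.2% and the top 3 at 44.1%. Ccl8 led the library labelled CD4 at 24.2%, followed by Ccl12 at 15.6% and Ccl2 at 14.5%. Ccl2 was the common element, among the top 3 of each library with 11.7%, 12.9% and 14.5% of the sum in M1, M2 and CD4.

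**Figure D2:**
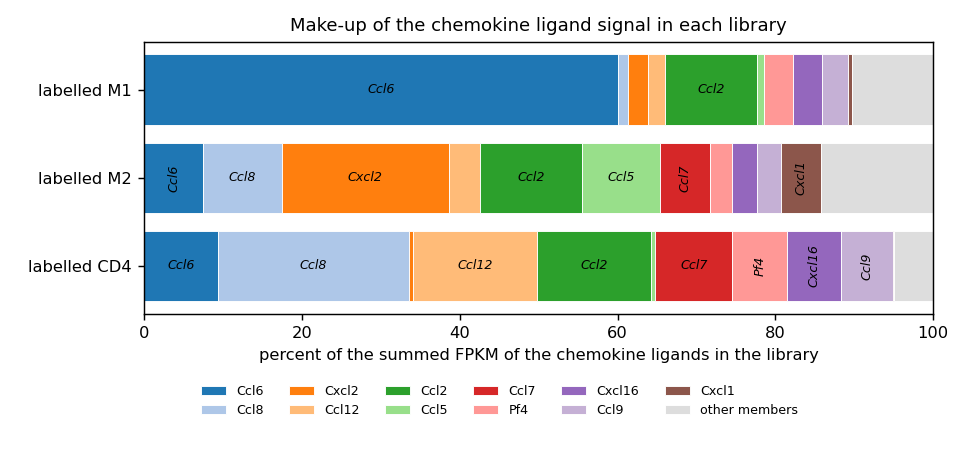
Percent of the summed FPKM of the chemokine ligands taken by each member in the libraries labelled M1, M2 and CD4, with the 11 members that reach 5% in at least 1 library drawn in colour and the rest in grey. Ccl6 fills 60.1% of the bar of M1, Cxcl2 21.2% of that of M2 and Ccl8 24.2% of that of CD4.

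The 3 ligands of CCR2, the receptor by which inflammatory monocytes leave the bone marrow and enter tissues, are Ccl2, Ccl7 and Ccl12. Ccl2, the classical monocyte chemoattractant, was at 262 FPKM in the library labelled M1, 44.7 in M2 and 363 in CD4. It was 5.85 times higher in M1 than in M2 (log2 ratio of M2 against M1 -2.52) and 8.12 times higher in CD4 than in M2 (-2.99), while CD4 and M1 differed by a log2 ratio of 0.47 and were not past the fold. Ccl12, a mouse paralog of Ccl2, was at 47.2, 13.7 and 390 FPKM in M1, M2 and CD4. Unlike Ccl2 it separated the libraries labelled CD4 and M1, 8.27-fold with a log2 ratio of 3.02. Ccl7, which also attracts monocytes, was at 21.8 FPKM in M2 and 245 in CD4, and was listed at 0 in M1. Whether that 0 is a failed estimate was not tested, and the adjacent gene Ccl2 was among the highest members in the same library. Together the CCR2 ligands summed to 309 FPKM in M1, 80.1 in M2 and 998 in CD4, which was 13.8%, 23.2% and 40.0% of the ligand total.

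Ccl8 and Ccl1 both act through CCR8 in the mouse, a receptor of Th2 and regulatory T cells, and they ran in opposite directions between the libraries labelled M2 and CD4. Ccl8 was at 27.8 FPKM in M1, 34.5 in M2 and 603 in CD4, the highest level of any member in the library labelled CD4. The log2 ratio was 4.39 for CD4 against M1 (21.7-fold) and -4.09 for M2 against CD4, while M2 and M1 were within the fold at 0.30. Ccl1, made mainly by activated T cells, was at 0.0450, 1.82 and 0.231 FPKM in M1, M2 and CD4. It was among the 5 members, of the 23 reaching 1 FPKM, that were highest in the library labelled M2, with log2 ratios of 1.43 for M2 against M1 and 1.20 for M2 against CD4 (3.73 and 2.54 with a pseudocount of 0.1 FPKM). Its level in M1 corresponds to an estimated 1.42 fragments, so no fold is given for it there, and it entered both comparisons through the library labelled M2 alone.

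The inflammatory CC ligands Ccl3, Ccl4, Ccl5, Ccl6 and Ccl9, which attract monocytes, macrophages and effector T cells, took in both the highest member and several that differed little. Ccl6, a macrophage chemokine that acts through CCR1, was at 1347 FPKM in M1, 25.7 in M2 and 234 in CD4. This was the highest value of any member in any library, above 99.96% of all genes in the library labelled M1. It was 52.4 times higher in M1 than in M2 (log2 ratio of M2 against M1 -5.66) and 5.75 times higher in M1 than in CD4 (CD4 against M1 -2.52). Of that level in M1, 35.9% was assigned to a transcript with a retained intron, beside 33.1% in M2 and 0% in CD4. Ccl9, the close relative of Ccl6 and also a CCR1 ligand, had another order, with 74.0 FPKM in M1, 10.3 in M2 and 166 in CD4. The log2 ratio of CD4 against M1 was therefore 1.15 for Ccl9 and -2.52 for Ccl6, although both genes lie side by side.

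Ccl3 (MIP-1alpha), Ccl4 (MIP-1beta) and Ccl5 (RANTES) differed less. Ccl3 was at 28.9, 15.2 and 33.4 FPKM in the libraries labelled M1, M2 and CD4. Ccl4 was at 20.4 FPKM in M1, 13.4 in M2 and 27.7 in CD4. Between M2 and M1 the log2 ratios were -0.89 for Ccl3 and -0.57 for Ccl4, and neither was past the fold. Against CD4, Ccl3 was just past it at -1.09 and Ccl4 just short of it at -0.996, and the latter passed it with a pseudocount of 0.1 FPKM (-1.04), with all rows summed (-1.10) and after scaling by the median ratio (-1.06). Ccl5, made by effector T cells as well as macrophages, ran the other way at 21.2, 34.1 and 11.6 FPKM. It was 2.93 times higher in M2 than in CD4 (log2 ratio 1.47).

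Beside Ccl1, Ccl5 and Xcl1, most markers of CD8 T and NK cells were also highest in the library labelled M2, 7 of 9. The 9 markers summed to 6.54 FPKM in M1, 43.2 in M2 and 1.404 in CD4, with Nkg7 at 17.1 and Gzma at 8.69 FPKM in M2, and Prf1 listed at 0 there. Klrb1c was highest in M1, at 3.18 FPKM beside 0.735 in M2, and Klrk1 was within the fold between M2 and M1. The 6 B-cell markers summed to 1.56, 58.0 and 11.8 FPKM in M1, M2 and CD4. The part of either in these ligand levels was not tested. Xcl1 (lymphotactin), the ligand of XCR1 on cross-presenting dendritic cells and a product of CD8 T and NK cells, was at 0.133 FPKM in M1, 5.87 in M2 and 0.275 in CD4. Its log2 ratio was 2.60 for M2 against M1 and 2.43 for M2 against CD4 (4.68 and 3.99 with a pseudocount of 0.1 FPKM). Xcl1, too, entered these comparisons through the library labelled M2 alone.

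The CCR4 ligands Ccl17 (TARC) and Ccl22 (MDC), which attract Th2 and regulatory T cells and are typical products of dendritic cells and alternatively activated macrophages, stood far above 1 FPKM in 1 library, that labelled M1. Ccl17 was at 40.5 FPKM in M1, 0.603 in M2 and 1.29 in CD4. Ccl22 was at 18.6 FPKM in M1, 0.497 in M2 and 0.952 in CD4. Against CD4, M1 was 31.4 times higher for Ccl17 (log2 ratio of CD4 against M1 -4.18) and 19.6 times higher for Ccl22 (-3.33). Against M2, the log2 ratios were -4.69 and -3.71. The 7 dendritic cell markers summed to 161 FPKM in the library labelled M1, 13.7 in M2 and 36.8 in CD4. Most of the sum in M1 was Itgax at 124 FPKM, followed by Cd209a at 23.7. Of the 7, 4 were highest in M1 and 3 in M2. Flt3 was at 2.19 FPKM in M2 beside 0.314 in M1, and Clec9a at 1.09 beside 0.392. Zbtb46 was within the fold in each comparison. The part of these markers in the level of both CCR4 ligands was not tested.

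Ccl24 (eotaxin-2) and Ccl11 (eotaxin) attract eosinophils through CCR3. Ccl24 was at 8.21 FPKM in M1, 1.38 in M2 and 10.1 in CD4, with log2 ratios of -1.95 for M2 against M1, -2.22 for M2 against CD4 and 0.27 for CD4 against M1. Its rows that were not used moved these values, to -2.80, -3.39 and 0.60 with all rows summed and to -3.06, -3.88 and 0.81 with the largest row. Ccl11, best known as a product of fibroblasts and epithelium, did not exceed 0.441 FPKM in any library.

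For the neutrophil-attracting ligands of CXCR2, the lowest sum was in the library labelled CD4. They summed to 123 FPKM in M1, 92.7 in M2 and 21.9 in CD4, or 5.50%, 26.8% and 0.878% of the ligand total. All 6 carry codons for glutamate, leucine and arginine directly before the first cysteine codon, the ELR motif known to be needed for CXCR2 binding, and no other member does. The coding sequences around this site are shown for the members that were present and for a pair of CXC ligands without it, from the GENCODE annotation of build NCBIM37 (mm9), with the cysteine codons and any ELR codons in capitals.
Cxcl1, chr5:91320510-91320539, plus strand, exon 2: aatGAGCTGCGCTGTcagTGCctgcagacc
Cxcl2, chr5:91333156-91333185, plus strand, exon 2: agtGAACTGCGCTGTcaaTGCctgaagacc
Cxcl3, chr5:91215382-91215411, plus strand, exon 2: agtGAGCTGCGCTGTcagTGCctgaacacc
Ppbp, chr5:91198099-91198128, plus strand, exon 2: atcGAACTGCGCTGCagaTGTacgaatacc
Pf4, chr5:91201958-91201987, plus strand, exon 2: ggagatcttagcTGTgtgTGTgtgaagacc
Cxcl10, chr5:92777198-92777227, minus strand, exon 2: aggacggtccgcTGCaacTGCatccatatc
The CC ligands have no base between both cysteine codons, as in Ccl6 and Ccl8, which led the libraries labelled M1 and CD4, and in Ccl2, and Cx3cl1 has 3 codons between them.
Ccl6, chr11:83402876-83402905, minus strand, exon 3: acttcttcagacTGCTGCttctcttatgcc
Ccl8, chr11:81929546-81929575, plus strand, exon 2: gctccagtcaccTGCTGCtttcatgtacta
Ccl2, chr11:81849996-81850025, plus strand, exon 2: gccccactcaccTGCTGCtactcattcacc
Cx3cl1, chr8:97301939-97301968, plus strand, exon 2: ggcatgacgaaaTGCgaaatcatgTGCgac
In all, 17 members had CC spacing, 13 CXC and 1 CX3C, while Xcl1 had none of these and Cxcl11 had no coding transcript in the annotation.

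Within the CXCR2 group, Cxcl1 and Cxcl2 parted from Cxcl3 and Ppbp. Cxcl2 (MIP-2) was at 57.4 FPKM in M1, 73.2 in M2 and 14.4 in CD4, the highest member in the library labelled M2. Cxcl1 (KC) was at 11.8 FPKM in M1, 17.6 in M2 and 2.54 in CD4. Against CD4, M2 was 5.08 times higher for Cxcl2 (log2 ratio 2.27) and 6.92 times higher for Cxcl1 (2.39), and M1 was 3.99 and 4.62 times higher (CD4 against M1 -1.92 and -1.85). M2 and M1 did not differ past the fold for either gene, at 0.35 for Cxcl2 and 0.54 for Cxcl1. Cxcl3, by contrast, was at 34.7 FPKM in M1 but 1.23 in M2 and 2.09 in CD4. Its log2 ratios were -4.00 for M2 against M1 and -3.53 for CD4 against M1, and M2 and CD4 were within the fold at -0.47. Ppbp, whose product is cleaved to the platelet chemokine NAP-2, had the same order as Cxcl3 with 18.8, 0.430 and 2.72 FPKM, and was lower in M2 than in CD4 with a log2 ratio of -1.38 (-2.41 with a pseudocount of 0.1 FPKM). Cxcl5 did not exceed 0.768 FPKM, and Cxcl15, the lung chemokine lungkine, was listed at 0 in all 3 libraries.

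The values of Cxcl1 and Cxcl2 depended on how the rows were joined. Cxcl2 had further rows with a missing value in another column, which held 45.8 FPKM for M1 and 15.6 for CD4. With all rows summed, the log2 ratio of Cxcl2 for M2 against M1 turned from 0.35 to -0.49, and the ratio of Cxcl1 for CD4 against M1 went from -1.85 to -0.26 and lost its call. The direction of both genes for M2 against CD4 held, at 1.26 and 1.03. Reads of 51 bases do not fully separate Cxcl2 from Cxcl3, which share 3.28% and 6.26% of their 51-base stretches with each other. Beside this group, the 10 neutrophil markers summed to 70.1 FPKM in M1, 244 in M2 and 35.9 in CD4. Of the 10, 8 were highest in M2, led by S100a9 at 110 and S100a8 at 84.5 FPKM, and 2 in CD4. The defining marker Ly6g was listed at 0 in M2 and did not exceed 0.0916 FPKM elsewhere. Csf3r, at 19.7, 8.40 and 25.3 FPKM in M1, M2 and CD4, was lower in M2 in both comparisons (-1.14 and -1.49). Retnlg was within the fold between M2 and M1. The part of these markers in the levels of Cxcl1 and Cxcl2 was not tested.

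The promoters of these genes are shown because Cxcl1, Cxcl2 and Cxcl3 differ in level across the libraries while sharing a motif near the start. A search of the RefSeq promoter windows of GRCm38.p6, a later build than that of the files, from 250 bases before to 50 after the start and on both strands, covered 24 members. It looked for GGGANNTTCC, a form of the NF-kB motif, and for GAAANNGAAA, a core of the interferon-stimulated response element (ISRE). The NF-kB form does not read alike on both strands. Overlapping matches can still occur on each strand, as for Cxcl3 at 73 and 72 bases before the start. The NF-kB motif was in 482 of 32851 windows (1.47%) and in 5 of the 24 members, namely Cxcl1, Cxcl2, Cxcl3, Cxcl10 and Ccl1. The ISRE core was in 1131 windows (3.44%) and in 3 members, Cxcl10, Cxcl14 and Ccl19. The 30 bases around the NF-kB match are given with the match in capitals.
Cxcl3, chr5:90786018-90786047 of GRCm38.p6, plus strand, 73 bases before the start: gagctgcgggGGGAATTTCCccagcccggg
Cxcl1, chr5:90891164-90891193 of GRCm38.p6, plus strand, 71 bases before the start: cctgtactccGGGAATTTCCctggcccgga
Cxcl2, chr5:90903792-90903821 of GRCm38.p6, plus strand, 97 bases before the start: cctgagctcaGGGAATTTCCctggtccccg
Cxcl10, chr5:92349029-92349058 of GRCm38.p6, minus strand, 159 bases before the start: agaggggagaGGGAAATTCCaagttcatgg
Ccl1, chr11:82179989-82180018 of GRCm38.p6, minus strand, 196 bases before the start: tctgcacttgGGGAAGTTCCcaaggccact
The 10 matched bases were the same in Cxcl1, Cxcl2 and Cxcl3. The levels of these 3 genes, in that order, were 11.8, 57.4 and 34.7 FPKM in M1. They were 17.6, 73.2 and 1.23 FPKM in M2, and 2.54, 14.4 and 2.09 FPKM in CD4. Any part of the motif in these levels was not tested. A match is a description of these letters and not a measured binding site. Ccl2, Ccl4, Ccl5, Ccl7, Ccl11, Ccl24, Cxcl5, Cxcl11 and Cxcl16 had no window in the table.

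Of the interferon-inducible ligands of CXCR3, which guides Th1 and CD8 T cells, Cxcl10 (IP-10) was present in each library. It was at 36.7 FPKM in M1, 5.91 in M2 and 27.5 in CD4, with log2 ratios of -2.45 for M2 against M1, -2.05 for M2 against CD4 and -0.40 for CD4 against M1. Cxcl9 (MIG) was at 1.71 FPKM in M1 and 2.51 in CD4 and was listed at 0 in M2. Cxcl11 was listed at 0 in all 3 libraries, but its only row is annotated as an antisense transcript and does not measure the coding RNA. Cxcl10 overlaps Art3 and Cxcl16 overlaps Zmynd15 on the opposite strand, and reads of such pairs may not be told apart, since use of strand in the counting is not given in the sources used here.

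Cxcl16 and Cx3cl1 encode the ligands that are made as membrane proteins with a chemokine domain on a stalk, and both can be shed by metalloproteases. Cxcl16, ligand of CXCR6 and a scavenger receptor of macrophages, was at 81.2 FPKM in M1, 11.3 in M2 and 169 in CD4. It was 7.21 times higher in M1 than in M2 and 14.97 times higher in CD4 than in M2 (log2 ratios of M2 -2.75 and -3.79), and 2.08 times higher in CD4 than in M1 (1.04). Cx3cl1 (fractalkine), typical of endothelium and neurons, did not exceed 0.506 FPKM. Among the sheddases, Adam10 was at 51.01, 34.7 and 48.5 FPKM and Adam17 at 49.7, 20.9 and 55.7 FPKM in M1, M2 and CD4.

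Pf4 (platelet factor 4) and Ppbp are best known as products of megakaryocytes stored in platelets, but here Pf4 was among the most abundant members. Pf4 was at 81.1 FPKM in M1, 9.60 in M2 and 174 in CD4, with log2 ratios of -2.95 for M2 against M1, -4.05 for M2 against CD4 and 1.09 for CD4 against M1. The 8 markers of platelets and megakaryocytes summed to 0.289 FPKM in M1, 0.651 in M2 and 0.286 in CD4, none reached 1 FPKM, and 5 of the 8 (Gp9, Gp1bb, Gp6, Treml1 and Clec1b) were listed at 0 in each library. Of the 10 macrophage markers, 9 were highest in CD4 and all 10 lowest in M2. Which cells the Pf4 RNA came from was not tested. Although Pf4 and Ppbp are neighbouring genes, Ppbp was 6.93 times higher in M1 than in CD4 (log2 ratio of CD4 against M1 -2.42), while Pf4 was 2.15 times higher in CD4. Cxcl14, a chemokine of epithelium and stroma also known to attract monocytes, was at 20.2 FPKM in M1, 1.06 in M2 and 13.6 in CD4. The 7 fibroblast markers summed to 7.77, 10.4 and 31.9 FPKM and the 11 kidney epithelium markers to 73.6, 193 and 95.2 FPKM in the same order, and their part in the level of Cxcl14 was not tested.

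The homeostatic ligands that place lymphocytes in lymphoid organs, gut and skin stayed at low levels. Ccl19, Ccl20, Ccl25, Cxcl12 and Cxcl13 summed to 0.907 FPKM in M1, 1.13 in M2 and 0.600 in CD4, and none reached 1 FPKM in any library in the rows used. Ccl25, the gut and thymus ligand, was listed at 0 in CD4 and was at 0.796 and 0.877 FPKM in M1 and M2, of which 54.9% and 67.4% lay in transcripts annotated as non-coding. Its rows that were not used held 3.21, 4.69 and 1.85 FPKM in M1, M2 and CD4, so that with all rows summed it exceeded 1 FPKM in each library and was higher in M2 than in CD4 (log2 ratio 1.20). Ccl19 shares 96.4% of its 51-base stretches with Gm2023 and Gm2442, so its level is uncertain. The 7 ligands outside the list, Ccl21a, Ccl21b, Ccl21c, Ccl26, Ccl27a, Ccl27b and Cxcl17, did not exceed 0.0342 FPKM.

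Counted over the members, the library labelled M2 was the low one. Against M1, 23 members entered and 14 (60.9%) were lower in M2, beside 14.5% of all 12415 genes that entered, while 3 (13.0%), Ccl1, Ccl7 and Xcl1, were higher, beside 16.9%. The median log2 ratio was -1.95 over these members and 0.10 over all genes that entered. The share that was lower in M2 stood well above that of all genes, whereas the share that was higher was near it. Against CD4, 22 entered, 14 (63.6%) were lower in M2 beside 15.3% of all 12415 genes, and 5 (22.7%), Ccl1, Ccl5, Cxcl1, Cxcl2 and Xcl1, were higher beside 17.3%. The median there was -1.93, beside 0.12 over all genes. Both comparisons share the library labelled M2. Among the members lower in M2, Cxcl9 and Ppbp were below 1 FPKM in M2 in both comparisons, and Ccl17 and Ccl22 against M1. These entered through the other library alone and could not be called higher in M2. Ccl1, Ccl7 and Xcl1, higher in M2 than in M1, entered that comparison through M2 alone and could not be called lower. The same held for Ccl1 and Xcl1 against CD4. Ccl7 and Cxcl9 are counted although listed at 0 in M1 and M2. Without such genes, 2 members were higher and 13 lower in M2 than in M1, beside 13.2% and 12.8% of all genes. Against CD4, 5 were higher and 13 lower in M2, beside 13.6% and 13.7%. With each library scaled to a total of 1000000, which puts most genes below the minimum level, 0 members were higher and 7 lower in M2 than in M1, and 1 was higher and 8 lower than in CD4.

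Between the libraries labelled CD4 and M1, which both carried macrophage markers, the members split in both directions. Of 21 that entered, 6 (28.6%) were higher in CD4, beside 7.01% of all 11572 genes, and 7 (33.3%) were lower, beside 7.21%. The median of 0.20 over the members hid this split and lay near the -0.01 of all genes. Higher in CD4 were Ccl7, Ccl8, Ccl9, Ccl12, Cxcl16 and Pf4, ligands of CCR2, CCR8, CCR1 and CXCR6 and the platelet factor. Higher in M1 were Ccl6, Ccl17, Ccl22, Cxcl1, Cxcl2, Cxcl3 and Ppbp. These take in both CCR4 ligands and 4 of the 6 CXCR2 ligands, of which the other 2 did not enter. With all rows summed, the log2 ratio of Cxcl1 was -0.26 and its call was lost. Ccl7, listed at 0 in M1, is among those higher in CD4 and entered through CD4 alone. Ccl22, at 0.952 FPKM in CD4, entered through M1 alone. Neither gene could be called the other way. The remaining 8 of the members that entered, Ccl2, Ccl3, Ccl4, Ccl5, Ccl24, Cxcl9, Cxcl10 and Cxcl14, were within the fold. Of the 10 macrophage markers 5 were higher in CD4 and the other 5 within the fold, and none was lower. The part of macrophage content in the split of the ligands was not tested.

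**Figure D3:**
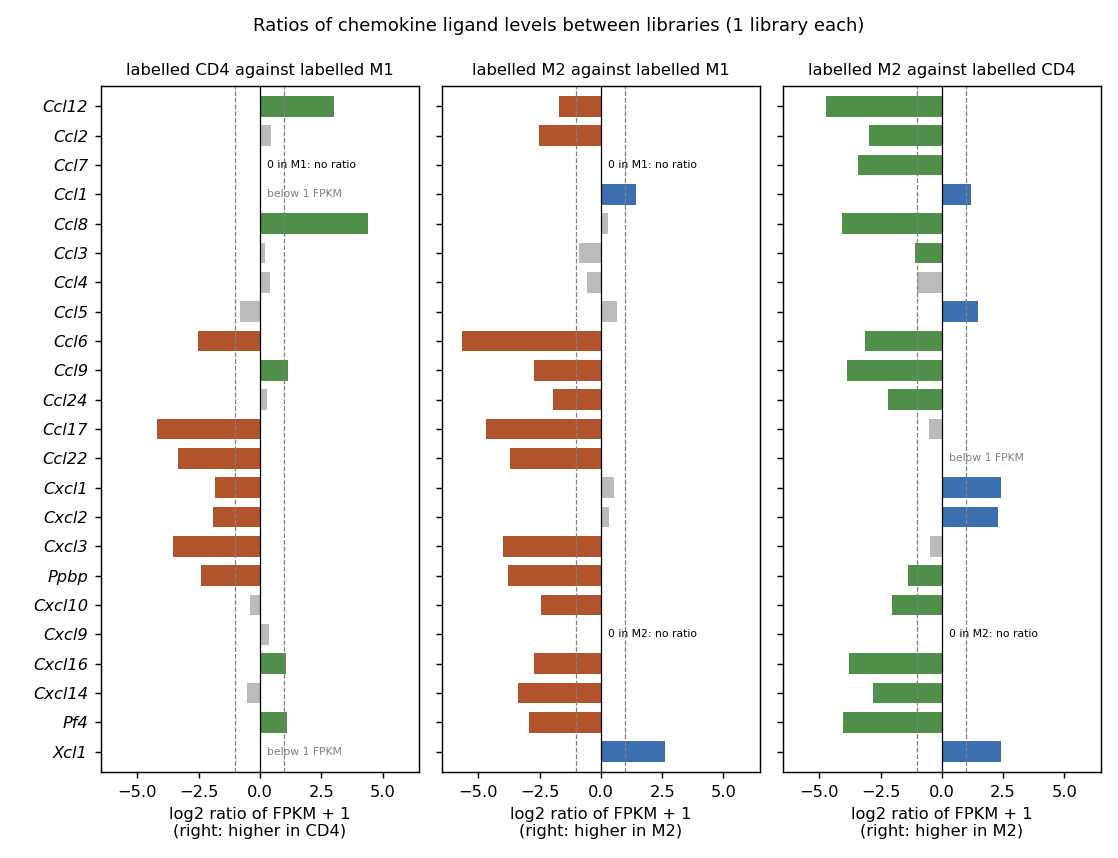
Log2 ratio of FPKM + 1 for the 23 members that reach 1 FPKM in at least 1 library, for CD4 against M1 (left), M2 against M1 (middle) and M2 against CD4 (right), 1 library each. Bars past the dashed lines at -1 and 1 take the colour of the higher library, grey bars are within the fold, and members listed at 0 in 1 library have no bar; 14 members were lower in M2 in each of the comparisons with M2, Cxcl9 included.

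Many members lie next to each other on the chromosome, and neighbours did not always share a pattern. In build NCBIM37, Ccl2, Ccl7, Ccl11, Ccl12, Ccl8 and Ccl1 lie on chromosome 11 from 81849073 to 82119192, and this cluster held 15.03% of the ligand total in M1, 33.8% in M2 and 64.2% in CD4. The second cluster on chromosome 11, from 83339280 to 83478185, holds Ccl5, Ccl9, Ccl6, Ccl3 and Ccl4 and made up 66.5%, 28.5% and 18.9%. By summed level, the libraries labelled M1 and CD4 thus drew most of their ligand RNA from different clusters of the same chromosome. In M1 this rested on 1 gene, Ccl6, which alone held 60.1% of the ligand total. Ccl7, in the first cluster, was listed at 0 in M1, which can be a failed estimate. The CXC cluster on chromosome 5, from 91188325 to 91334935, with Cxcl5, Ppbp, Pf4, Cxcl3, Cxcl15, Cxcl1 and Cxcl2, made up 9.12%, 29.6% and 7.85%. Within it, in the rows used, Ppbp and Cxcl3 were highest in M1, Cxcl1 and Cxcl2 in M2, and Pf4 in CD4. M2 and M1 were within the fold for Cxcl1 and Cxcl2. With all rows summed, Cxcl2 stood higher in M1 than in M2 (log2 ratio of M2 against M1 -0.49). On chromosome 8, from 97269490 to 97335935, Ccl22 and Ccl17 flank Cx3cl1, and both were highest in M1 while Cx3cl1 did not reach 1 FPKM. The remaining cluster, on chromosome 5 from 92750357 to 92794511, holds the CXCR3 ligands Cxcl9, Cxcl10 and Cxcl11.

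**Figure D4:**
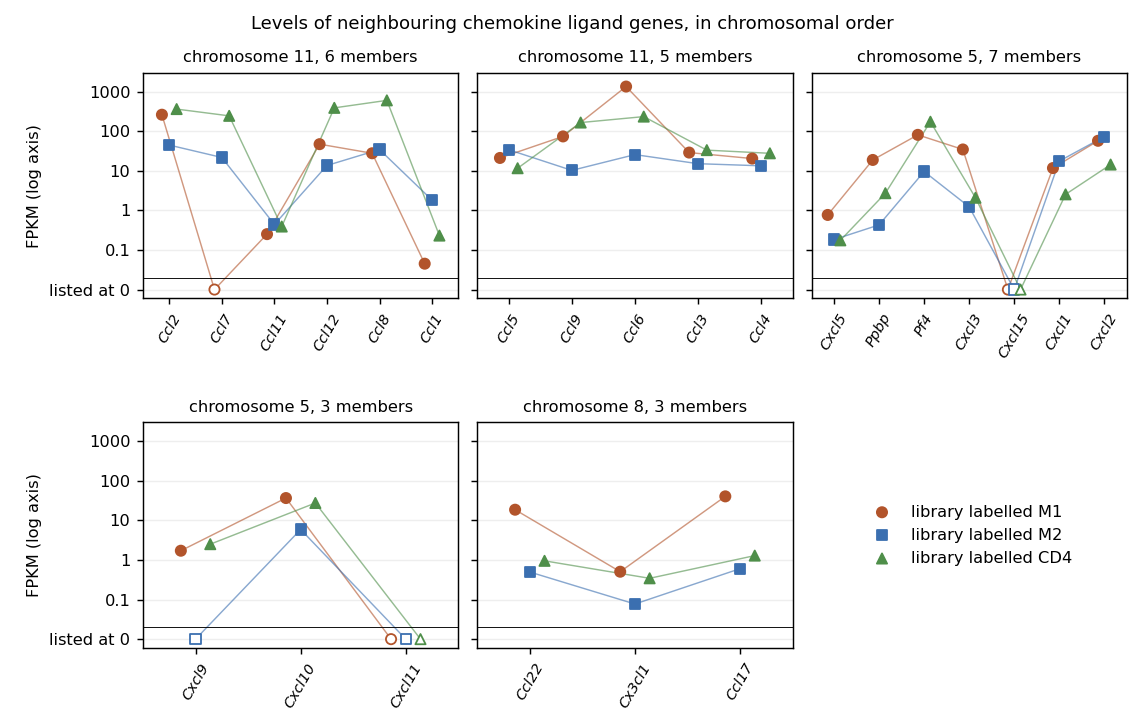
Level in FPKM (log axis) of neighbouring chemokine ligands in chromosomal order, not to genomic scale, in the libraries labelled M1 (circles), M2 (squares) and CD4 (triangles); lines join values of 1 library and open marks are listed at 0. Ccl8, at 603 FPKM in CD4, and Ccl6, at 1347 FPKM in M1, are the peaks of both clusters on chromosome 11.

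The receptors of these ligands were divided between the libraries. Of 19 receptor genes, 15 entered the comparison of M2 with M1, where 7 were higher in M2 (beside 16.9% of all genes) and 4 lower (14.5%). Against CD4, 15 entered, 9 higher in M2 (beside 17.3%) and 4 lower (15.3%). Most receptors called higher in M2 were below 1 FPKM in the other library. They entered through the library labelled M2 alone and could not be called lower. Among them were Ccr4 and Cxcr6 in both comparisons and Cxcr3 against M1. Some were listed at 0 in the other library, which can be a failed estimate. Between CD4 and M1, 10 entered, 2 higher in CD4 (beside 7.01%) and 3 lower (7.21%). Ccr2, receptor of Ccl2, was at 526 FPKM in M1, 23.1 in M2 and 183 in CD4. Ccr1 was at 72.4, 3.31 and 76.8 FPKM and Cx3cr1 at 28.6, 4.38 and 140 FPKM. These receptors, typical of monocytes and macrophages, were low in the library labelled M2, as most ligands were. Receptors typical of T cells stood highest there, with Ccr7 at 6.44, 122 and 0.464 FPKM, Cxcr3 at 0.140, 19.1 and 1.42 FPKM, and Cxcr6 at 0.156, 14.3 and 0.118 FPKM in M1, M2 and CD4. Ccr4, the receptor of Ccl17 and Ccl22, was at 7.67 FPKM in M2 and did not exceed 0.0324 FPKM elsewhere. Cxcr2 was low in each library, at 2.36, 2.67 and 0.538 FPKM. Mmp12, a macrophage protease known to cleave chemokines, was at 398 FPKM in M1, 18.0 in M2 and 78.3 in CD4. Dpp4 (CD26), which trims the N terminus of several CXC and CC ligands, was at 1.93, 11.7 and 0.364 FPKM. Of 4 atypical receptors, only Cxcr7 reached 1 FPKM, at 2.94 FPKM in M1.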

How the data were processed

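The authors aligned trimmed paired reads of 51 bases to mouse genome mm9 with TopHat and Bowtie and estimated transcript levels with Cufflinks guided by Ensembl annotation (per the labels, Cuffdiff). They deposited 1 table of FPKM values with a column for each library, and columns were taken by their headings. Of 135070 rows, 10182 had no identifier, and 90316 of 92519 identifiers were found in the GENCODE annotation of NCBIM37. For each identifier the first row with values in all 3 columns was used (88278 identifiers) and rows were summed by gene symbol. The members, gene lists and rules were chosen with earlier results of these data known, and all members are named. The level of 1 receptor gene is not reported here by itself and is part of the receptor counts. Ratios used a pseudocount of 1 FPKM, a minimum of 1 FPKM in 1 of the 2 libraries and a fold of 2. The level of 1 fragment, and from it the depth, was taken as the mode of the low products of FPKM and length among transcripts of 2500 to 8000 bases, and limits from it cover counting error only. Cysteine codons were searched after the first 20 codons of the coding sequence. Neighbours within 500 kb formed a cluster. With 1 library per subset no test was made. Calculations were tested on simulated data and used pandas 2.3.3, numpy 2.4.6, scipy 1.17.1, matplotlib 3.10.9 and Python 3.11.15.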

Additional observations from a re-analysis of the deposited data

Results flagged for a closer look

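Some members had further rows in the table that lacked a value in at least 1 column and entered none of the levels above, although they held signal above the level that 3 fragments would give at the estimated depth. There was no control library to set beside them. The largest such values were 50.2 FPKM for Ccl7 in the library labelled CD4, and 45.8 FPKM in M1 and 15.6 in CD4 for Cxcl2. Ccl24 had 7.35 FPKM in M1 and 14.0 in CD4, beside 8.21 and 10.1 in the row used. Cxcl1 had 3.05 FPKM in M2 and 7.09 in CD4, the latter above the 2.54 of the row used. Ccl3 had 6.16 FPKM in M1, 2.28 in M2 and 9.22 in CD4, and Ccl4 had 1.54 in M2 and 5.33 in CD4. For Ccl25 the unused rows held 3.21 FPKM in M1, 4.69 in M2 and 1.85 in CD4, more than the rows used. Ccl12 had 6.22 FPKM in CD4. Smaller values were 0.318 FPKM for Ccl8 and 0.190 for Ccl11 in CD4, 0.358 for Ccl9 in M1, and 0.0957 for Cxcl9 and 0.217 for Cx3cl1 in M2. Cxcl9, listed at 0 in M2 in its complete row, thus had a low value there in another.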

How the results depend on the processing

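No paired analysis was possible because 1 library stood for each subset, and no library could be left out. Of the counts recomputed under an alternative, 67 stayed within 1.5 times the reported count and 14 did not. With each library scaled to a total of 1000000, which lowers all values and leaves fewer genes above the minimum, members at 1 FPKM or more numbered 11 in M1, 5 in M2 and 9 in CD4. Under that scaling 0 members were higher and 7 lower in M2 than in M1, 1 higher and 8 lower in M2 than in CD4, and 3 higher and 4 lower in CD4 than in M1. With a minimum of 10 FPKM, 1 member was higher in M2 than in M1, beside 15.2% of all genes. With that minimum, 3 were higher in M2 than in CD4, beside 15.9%. At a fold of 4, 3 were higher in M2 than in CD4 (beside 6.58%) and 3 in CD4 than in M1 (beside 2.23%). At a level of 10 FPKM, 12 members were present in M2. A pseudocount of 0.1 FPKM, no minimum, all rows summed, the largest row, median scaling and coding transcripts alone kept each count within 1.5 times, as did leaving out genes listed at 0, an alternative chosen after seeing the data. Among single ratios, 557 kept their side of the fold, 27 lost their call, 4 gained one, 3 uncalled ones moved, and 0 of those called changed sign. Depth limits Ccl1 and Xcl1 outside the library labelled M2.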
